A study of Mus musculus with 4 samples.

Results

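The genes described are 9 subunits of Polycomb repressive complex 1 (PRC1) of the canonical complex and of variant complexes other than PRC1.1, the one in which Bcor is best known, namely *Bmi1*, *Pcgf2*, *Pcgf3*, *Pcgf5*, *Pcgf6*, *Cbx2*, *Cbx7*, *Cbx8* and *Phc1*. They were taken by symbol from the deposited count table, and all 9 were found among its 12067 genes. The libraries are Quant-seq 3′ mRNA libraries of donor-derived KL cells, the CD45.2+ Lin- c-Kit+ Sca-1- myeloid progenitors of mouse bone marrow, sorted 20 weeks after whole bone marrow was transplanted into irradiated *Ptprca* recipients, whose own leukocytes carry CD45.1. The BcorΔE9-10 group (2 libraries) came from male scl-Cre-ERT +; Bcorfl/y donors and the BcorWT group (2 libraries) from male Bcorfl/y donors without the Cre. Donors of both groups carried the floxed allele and received tamoxifen as adults. The Cre is driven from a stem cell enhancer of *Tal1* (*Scl*), so tamoxifen activates it in haematopoietic stem cells rather than in the progenitors that were sorted. Loss of exons 9 and 10 shifts the reading frame of *Bcor* and truncates its protein before the domain that binds PCGF partners. The labels do not say whether the libraries of one group came from different recipients, so p-values measure the spread between these libraries, which may in part be technical.

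PRC1 adds ubiquitin to histone H2A at lysine 119, a mark of repressed genes. Each complex holds a RING subunit (Ring1 or Rnf2) and 1 of the PCGF proteins, and the PCGF partner decides which further subunits join. Canonical PRC1 contains Bmi1 (Pcgf4) or Pcgf2 (Mel18), a Cbx protein whose chromodomain reads the PRC2 mark H3K27me3, and a Phc protein whose SAM domain links complexes together. The variant complexes carry Rybp or Yaf2 in place of Cbx and are built on Pcgf1 (the Bcor complex), Pcgf3 or Pcgf5, and Pcgf6. In blood formation Bmi1 is best known for maintaining self-renewal of stem cells, and Cbx7 for favouring self-renewal where Cbx2 and Cbx8 favour differentiation. The comparison of BcorΔE9-10 with BcorWT therefore shows whether transcripts of the other PRC1 assemblies differed when the Bcor-containing one was disrupted.

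Library totals ran from 3825289.5 to 6253100.5 deposited counts. Levels are given as CPM, the count per 1000000 counts of library size after edgeR's TMM scaling, on which 3 counts are worth 0.489 to 0.876 CPM depending on the library. *Bcor* itself had 104 and 113 counts in BcorΔE9-10 and 58 and 79 in BcorWT, but reads at the 3′ end lie outside exons 9 and 10 and cannot check the genotype. All 8 myeloid progenitor markers listed were present, with a summed level of 7922 to 10811 CPM. All 6 neutrophil markers were present too and took from 6.72% to 15.1% of the counts, with the lower values in replicate 1 of both genotypes. Of 6 T cell markers 0 were in the table, and of 6 B cell markers 2 were. The 5 erythroid markers present summed to 73.6 and 60.5 CPM in BcorΔE9-10 and 21.0 and 33.5 CPM in BcorWT. The 3 dendritic cell markers present differed the other way, with 17.4 and 15.8 CPM against 20.2 and 48.4 CPM. The 2 megakaryocyte markers (46.8 and 29.5 against 39.4 and 77.7 CPM) and the 3 stem cell markers (33.8 and 27.4 against 42.3 and 22.8 CPM) overlapped in their sums. BcorWT replicates 1 and 2 were the least alike of all pairs (Pearson r = 0.893 across genes, against 0.901 to 0.947), and the transcript *Gm42418* took 27.9% of the counts in the first and 1.43% in the second. Scaling without *Gm42418*, or without it and the neutrophil markers, gave log2 fold changes between the genotypes of 0.43 and 0.45 for *Bmi1* (0.44 with all genes) and -0.62 and -0.60 for *Phc1* (-0.61), and changed the direction of 0 of the 9 members. The part of the other differences in the values below was not tested. In such bulk samples fewer cells of a type and less RNA per cell cannot be told apart.

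The 9 members are low or moderate in abundance. Quant-seq gives tags from the 3′ end of each transcript rather than along its length, so levels of different genes are compared here as CPM without division by length. *Bmi1* was highest with a mean over the 4 libraries of 18.4 CPM, at the 48.9 percentile of the genes in the table, followed by *Pcgf5* (17.1 CPM), *Phc1* (12.8 CPM), *Pcgf3* (11.6 CPM), *Cbx8* (11.2 CPM), *Cbx7* (5.51 CPM), *Pcgf2* (5.18 CPM), *Pcgf6* (3.49 CPM) and *Cbx2* (1.93 CPM, at the 1.47 percentile). The order was not the same within each genotype. Means of *Bmi1*, *Pcgf5* and *Phc1* were 21.1, 20.6 and 10.1 CPM in BcorΔE9-10 and 15.6, 13.5 and 15.4 CPM in BcorWT. Neighbours in the pooled order overlapped in their ranges over the 4 libraries at every step but 1. The exception was the step from *Cbx8*, never under 9.64 CPM, to *Cbx7*, never over 7.01 CPM. The members thus fall into a group of 5 with similar levels and a group of 4 below it, with *Pcgf2* above *Pcgf6* in all 4 libraries although their ranges overlap.

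**Figure D1:**
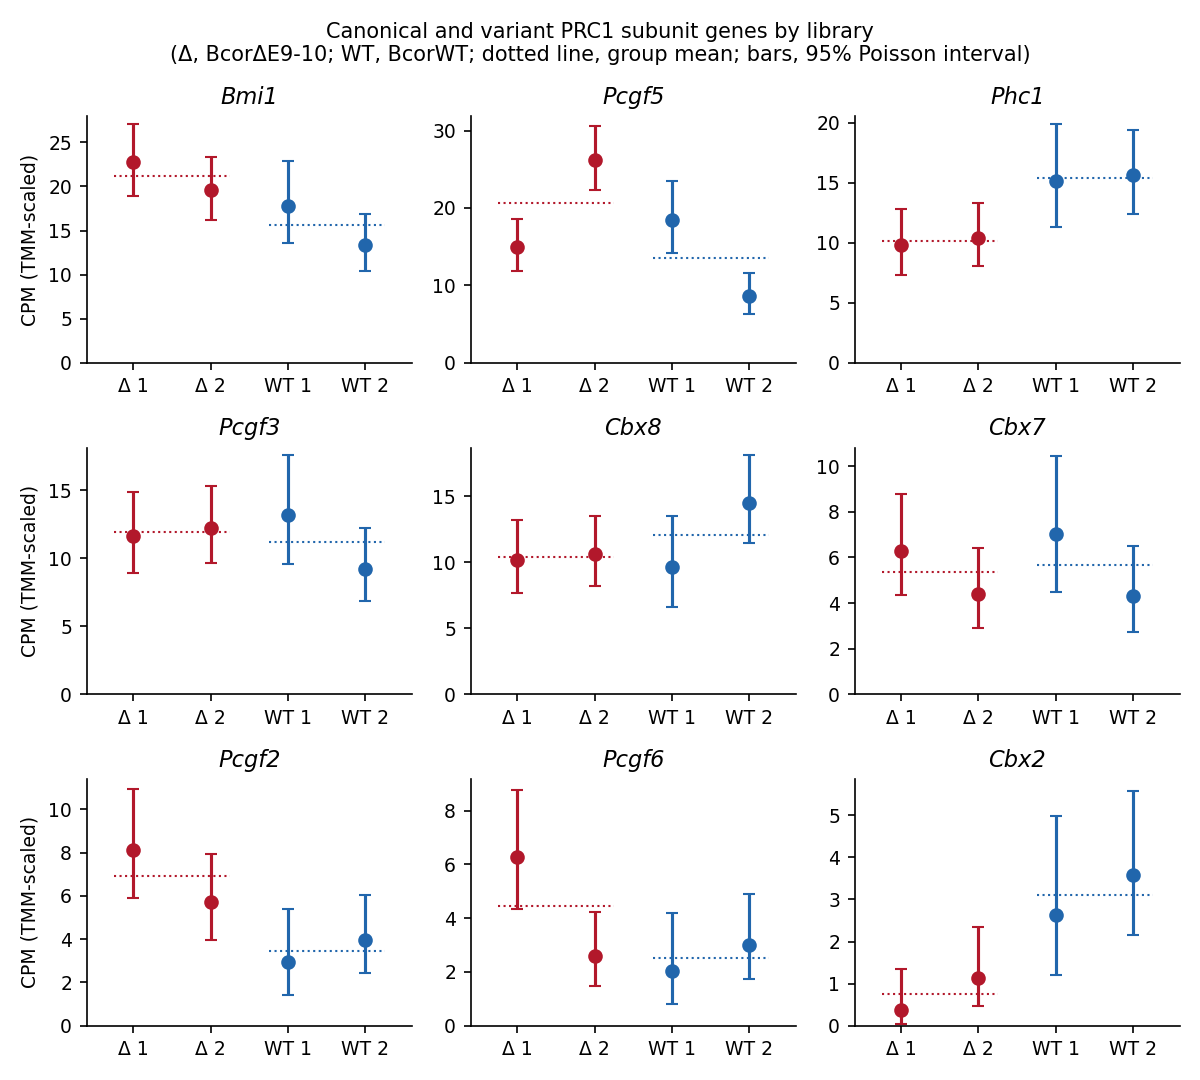
TMM-scaled CPM of the 9 members in each library, with 95% exact Poisson intervals (counting error only) as bars and group means as dotted lines; every vertical axis starts at 0. Both BcorΔE9-10 libraries lie above both BcorWT libraries for *Bmi1* and *Pcgf2* and below them for *Cbx2* and *Phc1*, whereas the groups overlap for the other 5 genes.

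Several members lie next to other genes, which matters for tags counted near the 3′ end. Positions are those of GENCODE M21 on GRCm38 (mm10), the build of the authors' alignment. *Bmi1* (ENSMUSG00000026739) spans chr2:18677018-18686629 on the plus strand and starts 786 bases beyond the end of *Commd3*, which runs the same way. *Cbx2* (chr11:119022962-119031270, plus strand) and *Cbx8* (chr11:119036305-119040969, minus strand) end towards each other with 5034 bases between them. *Cbx7* (chr15:79915807-79971119, minus strand) overlaps the end of *Apobec3* on the opposite strand by 100 bases, at the 3′ end of both genes. *Phc1* (chr6:122317731-122340561, minus strand) ends 50 bases from *M6pr*, and *Pcgf2* (chr11:97688823-97700497, minus strand) ends 201 bases from *Cisd3*. *Pcgf5* (chr19:36348309-36460970, plus strand) contains 2 processed pseudogenes on its own strand, away from its 3′ end. *Pcgf3* lies at chr5:108461232-108506976 (plus strand) and *Pcgf6* at chr19:47033617-47050906 (minus strand), with no such neighbour at the 3′ end. Whether the counting used the strand is not given in the sources used here, so counts of *Cbx7* and *Apobec3* may be mixed to that extent.

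Promoter sequences from RefSeq (GRCm38.p6, 250 bases before to 50 after the start) were matched for 8 of the 9 members, all but *Cbx2*. The E-box CACGTG reads the same on both strands and is bound by Myc and by Max, and in PRC1.6 by Mga with Max. It occurred in 3 of the 8 genes, *Bmi1*, *Pcgf2* and *Cbx8*, and in 7.15% of all 32851 promoters. The former counts genes and the latter promoter windows, of which *Pcgf5* has 3. CACGTG holds a CG, and the 7.15% was not matched for CG content. All 3 sites are shown. *Bmi1* and *Pcgf2* encode the alternative PCGF partners of canonical PRC1, and any relation of these sites to the levels of the genes was not tested. Each site is given in the direction of transcription with the E-box in capitals, at chr2:18676791-18676820, chr11:97699768-97699797 and chr11:119040994-119041023. The E-box begins 215, 137 and 98 bases before the RefSeq start from which each window is measured, which for *Pcgf2* and *Cbx8* lies inside the GENCODE bounds given above, so the *Pcgf2* site falls within those bounds.
*Bmi1*: gaatgaggggagCACGTGacccggcggggg
*Pcgf2*: aaggaatgaggtCACGTGggtgagtagtgg
*Cbx8*: cgtcgttagcaaCACGTGgggcgggaggaa
The E2F-type sequences TTTCGCGC and TTTGGCGC, searched on both strands, were found in 0 of the members' promoters and in 0.323% and 0.514% of all promoters. The promoters of *Phc1* and *Pcgf2* held 9 and 10 CG dinucleotides, *Pcgf6* 22, *Bmi1* and *Pcgf3* 23 each, *Cbx8* 24 and *Cbx7* 33, and the 3 starts of *Pcgf5* held 34, 5 and 35, against a median of 7 over all promoters. A match of letters describes the window and does not show binding.

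Among the PCGF genes, the fitted difference was positive for all 5 measured members, and 0 of them passed an adjusted p under 0.05 in edgeR's quasi-likelihood test (adjusted over all 12067 genes, of which 2, or 0.0166%, were called). *Bmi1* had 123 and 120 counts in BcorΔE9-10 and 61 and 71 in BcorWT, or 22.7 and 19.6 CPM against 17.8 and 13.4 CPM. Both BcorΔE9-10 libraries were higher than both BcorWT libraries, but the lowest of the former and the highest of the latter were close. Its log2 fold change was 0.44 (SE 0.37, 95% interval -0.40 to 1.29, edgeR adjusted p = 0.945). *Commd3*, just upstream on the same strand, had 20.3 and 29.7 CPM against 23.7 and 31.8 CPM, and the ratio of *Bmi1* to *Commd3* counts was 1.12 and 0.659 in BcorΔE9-10 and 0.753 and 0.420 in BcorWT. The neighbour therefore did not show the pattern of *Bmi1*, and the ratio of the pair overlapped between the groups.

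*Pcgf2*, the alternative to Bmi1 in canonical PRC1, had 44 and 35 counts in BcorΔE9-10 and 10 and 21 in BcorWT, which gives 8.13 and 5.71 CPM against 2.92 and 3.95 CPM. The groups did not overlap, and the mean of BcorΔE9-10 (6.92 ± 1.72 CPM, SD, n = 2) was about double that of BcorWT (3.44 ± 0.73 CPM). The log2 fold change of 0.99 (SE 0.56) was the largest positive one among the members, with an interval from -0.31 to 2.29 that includes 0 (edgeR adjusted p = 0.945). *Cisd3*, whose end faces that of *Pcgf2*, differed in the opposite direction, with 3.88 and 2.45 CPM against 6.72 and 8.47 CPM.

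*Pcgf3* and *Pcgf5* encode the related partners of the PRC1.3 and PRC1.5 complexes, which are known for depositing much of the H2A ubiquitin mark over broad domains. Pcgf3 is also a partner that the PCGF-binding domain of Bcor can hold in place of Pcgf1. *Pcgf3* had 63 and 75 counts against 45 and 49, or 11.6 and 12.2 CPM in BcorΔE9-10 and 13.1 and 9.22 CPM in BcorWT. Its BcorΔE9-10 libraries fell between the BcorWT libraries, and the log2 fold change was 0.10 (SE 0.42, 95% interval -0.87 to 1.07). *Pcgf5* had 81 and 161 counts against 63 and 46, or 15.0 and 26.2 CPM against 18.4 and 8.66 CPM. It varied 1.75-fold within BcorΔE9-10 and 2.13-fold within BcorWT, more than the 1.54-fold fitted difference between the genotypes. In each genotype the 95% Poisson intervals of the replicates, which cover counting error only, did not overlap. The source of that variation was not tested. The edgeR adjusted p was 0.986 for *Pcgf3* and 0.945 for *Pcgf5*.

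*Pcgf6* encodes the PCGF protein of PRC1.6, a complex that silences germline genes. It had 34 and 16 counts against 7 and 16, or 6.28 and 2.61 CPM in BcorΔE9-10 and 2.04 and 3.01 CPM in BcorWT. Only BcorΔE9-10 replicate 1 was high, and the other 3 libraries lay between 2.04 and 3.01 CPM. The log2 fold change of 0.79 (SE 0.71) was 0.031 without that library.

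Of the CBX members, *Cbx2* was lower in both BcorΔE9-10 libraries while *Cbx7* and *Cbx8* overlapped between the genotypes. *Cbx2* encodes the Cbx protein known for compacting chromatin. It had 2 and 7 counts in BcorΔE9-10 and 9 and 19 in BcorWT, or 0.370 and 1.14 CPM against 2.63 and 3.58 CPM. One BcorΔE9-10 library was under the floor of 3 counts, and the groups did not overlap. Its log2 fold change was -1.99 (SE 0.84, 95% interval -3.94 to -0.043), and its unadjusted p of 0.0462 was the only one under 0.05 among the 9 members, where 4.42% of all genes had such a p and 3.07% had it with a lower level in BcorΔE9-10. It did not pass adjustment (edgeR adjusted p = 0.945). Every gene of the deposited table has at least 2.03 CPM in 2 or more libraries, and *Cbx2* meets this only through the BcorWT group, so a lower level in BcorΔE9-10 was favoured by the filter and neither its p nor its ratio supports a difference. Summed over libraries there were 9 counts in BcorΔE9-10 and 28 in BcorWT, a rate 4.11 times higher in BcorWT with an exact interval of 1.89 to 9.90 for counting error only. The genes of the whole table whose centred log2 CPM over the 4 libraries was closest to that of *Cbx2* were *Gm11450*, *Ccl5* and *Scp2-ps2* (root mean square distance 0.0865, 0.102 and 0.119). With 4 points such likeness is a description of these libraries only.

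*Cbx7* had 34 and 27 counts against 24 and 23, or 6.28 and 4.40 CPM in BcorΔE9-10 and 7.01 and 4.33 CPM in BcorWT. In both genotypes replicate 1 was above replicate 2, and the log2 fold change was -0.073 (SE 0.56, 95% interval -1.37 to 1.23). The interval leaves room for a difference of 2-fold in either direction, so the data do not show that *Cbx7* was equal. *Apobec3*, which overlaps its 3′ end, was more abundant, with 40.1 and 41.2 CPM against 48.8 and 43.5 CPM. *Cbx8*, which encodes a Cbx protein found together with Bcor in germinal centre B cells, had 55 and 65 counts against 33 and 77, or 10.2 and 10.6 CPM against 9.64 and 14.5 CPM. Its BcorΔE9-10 libraries were alike and lay inside the range of BcorWT (log2 fold change -0.22, SE 0.43, edgeR adjusted p = 0.965).

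*Phc1*, a polyhomeotic subunit of canonical PRC1, varied little within either group. It had 53 and 64 counts in BcorΔE9-10 and 52 and 83 in BcorWT, or 9.80 and 10.4 CPM against 15.2 and 15.6 CPM. The means were 10.1 ± 0.45 CPM (SD, n = 2) and 15.4 ± 0.31 CPM, and the groups did not overlap. The log2 fold change was -0.61 (SE 0.39, 95% interval -1.50 to 0.29) and the edgeR adjusted p was 0.945. With from 52 to 83 counts, the Poisson intervals of single libraries were wide, 7.34 to 12.8 CPM in BcorΔE9-10 replicate 1 and 11.3 to 19.9 CPM in BcorWT replicate 1. *M6pr*, which ends 50 bases away, had 89.3 and 92.4 CPM against 108 and 45.9 CPM and did not share this pattern.

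In all, 0 of the 9 members passed an adjusted p under 0.05 with edgeR, limma-voom or DESeq2. At an unadjusted p under 0.05 there was 1 with edgeR, *Cbx2*, and 0 with limma-voom and with DESeq2. The libraries of the 2 genotypes did not overlap for 4 members, *Bmi1* and *Pcgf2* above and *Cbx2* and *Phc1* below, where 33.9% of all genes tested did not overlap (16.8% higher and 17.1% lower in BcorΔE9-10). A count of 4 in 9 is near that background, and the count was 5 with scaling by library totals alone. The median log2 fold change of the members was 0.10, beside -0.027 over all genes, with 5 positive and 4 negative. With 1 library left out this median ranged from 0.031 (without BcorΔE9-10 replicate 1) to 0.37 (without BcorWT replicate 1).

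**Figure D2:**
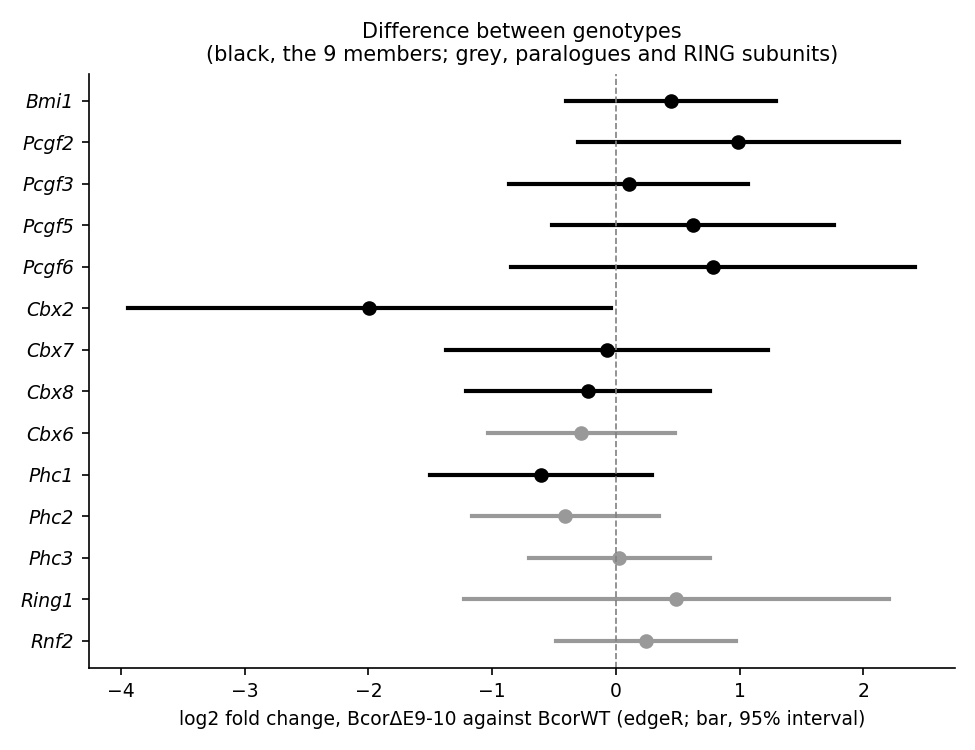
edgeR log2 fold changes of BcorΔE9-10 against BcorWT with 95% intervals for the 9 members (black) and the paralogues and RING subunits measured beside them (grey). The interval excludes 0 for *Cbx2* alone, and it includes 0 for the other 13 genes. *Cbx2* reaches 2.03 CPM only in BcorWT. A lower level in BcorΔE9-10 was thus favoured by the filter, and its interval does not support a difference.

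**Figure D3:**
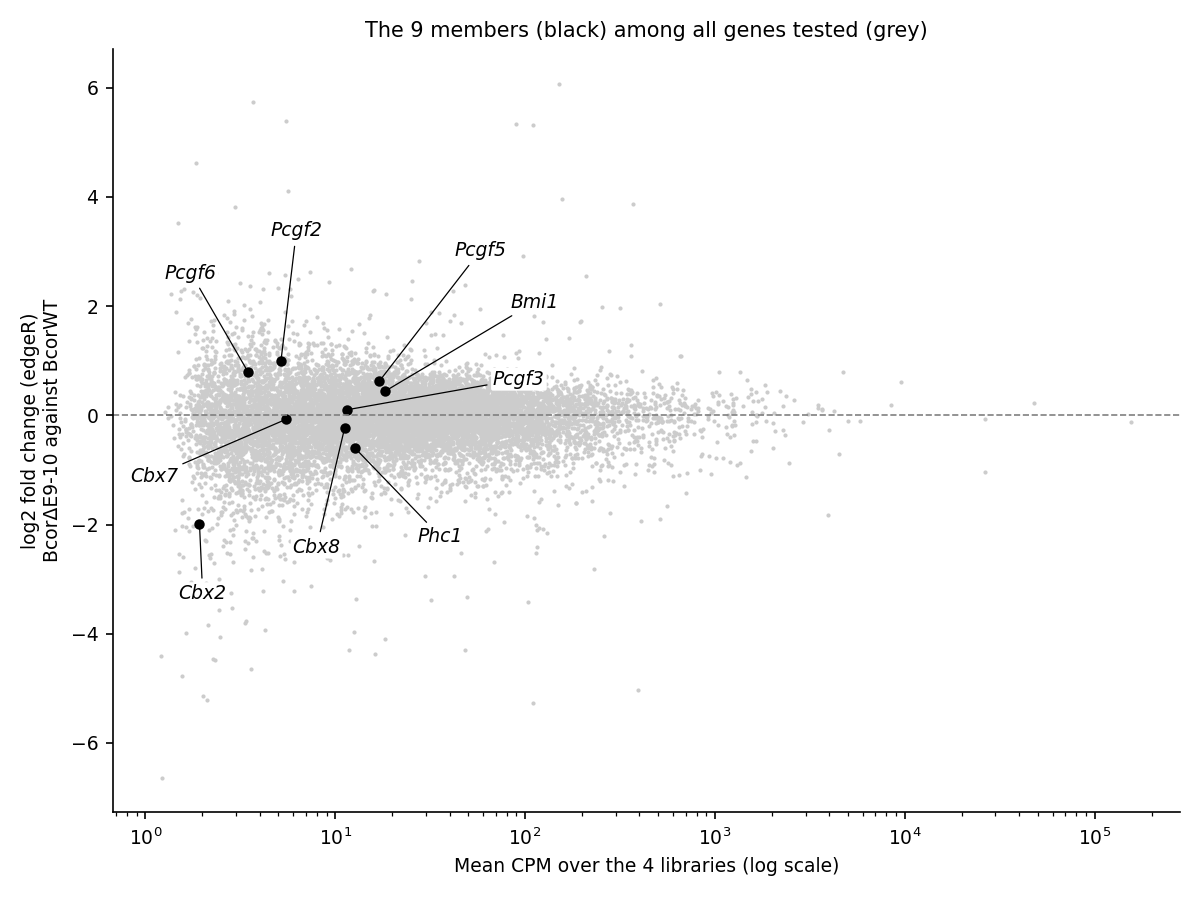
Log2 fold change against mean CPM over the 4 libraries (log axis) for all 12067 genes (grey) and the 9 members (black). The members lie between 1.93 and 18.4 CPM, within the cloud of genes of the same abundance.

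The share of each gene in the summed counts of related genes does not depend on how the libraries are scaled. No value for *Pcgf1*, the PCGF protein of the Bcor complex, was used here, so shares of the PCGF family are over the other 5 genes. *Bmi1* made up 35.7 and 29.5% of PCGF counts in BcorΔE9-10 and 32.8 and 35.0% in BcorWT, and *Pcgf5* made up 23.5 and 39.6% against 33.9 and 22.7%. The leading paralogue was therefore *Bmi1* in replicate 1 of BcorΔE9-10 and replicate 2 of BcorWT, and *Pcgf5* in the other libraries. *Pcgf3* held 18.3 and 18.4% in BcorΔE9-10 and 24.2 and 24.1% in BcorWT, a difference of 5.82 percentage points with no overlap. The Wilson intervals of these single shares, such as 14.5 to 22.7% in BcorΔE9-10 replicate 1 and 18.6 to 30.8% in BcorWT replicate 1, overlapped. The PCGF genes together had 63.8 and 66.3 CPM in BcorΔE9-10 and 54.3 and 38.2 CPM in BcorWT. The lower share of *Pcgf3* in BcorΔE9-10 is thus not a lower level, since its CPM overlapped between the genotypes (log2 fold change 0.10).

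The CBX shares are over *Cbx2*, *Cbx6*, *Cbx7* and *Cbx8*. *Cbx6* was the largest part in every library, with 55.2 and 56.4% in BcorΔE9-10 and 55.7 and 53.9% in BcorWT. *Cbx8* supplied 27.1 and 28.6% of these counts in BcorΔE9-10 and 22.1 and 29.8% in BcorWT, and *Cbx7* 16.7 and 11.9% against 16.1 and 8.91%. *Cbx2* was the smallest part, 0.985 and 3.08% against 6.04 and 7.36%, and its groups did not overlap. *Cbx8* thus exceeded *Cbx7* in all 4 libraries, by 1.62-fold and 2.41-fold in BcorΔE9-10 and by 1.38-fold and 3.35-fold in BcorWT. Among the PHC genes *Phc1* was the smallest part in every library, with 9.57 and 10.0% in BcorΔE9-10 and 12.7 and 13.2% in BcorWT. *Phc2* had 31.6 and 41.6 CPM against 43.2 and 53.8 CPM, also without overlap, and *Phc3* had 61.0 and 52.0 CPM against 61.6 and 49.3 CPM. The 3 PHC genes together reached 102 and 104 CPM in BcorΔE9-10 and 120.0 and 119 CPM in BcorWT.

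**Figure D4:**
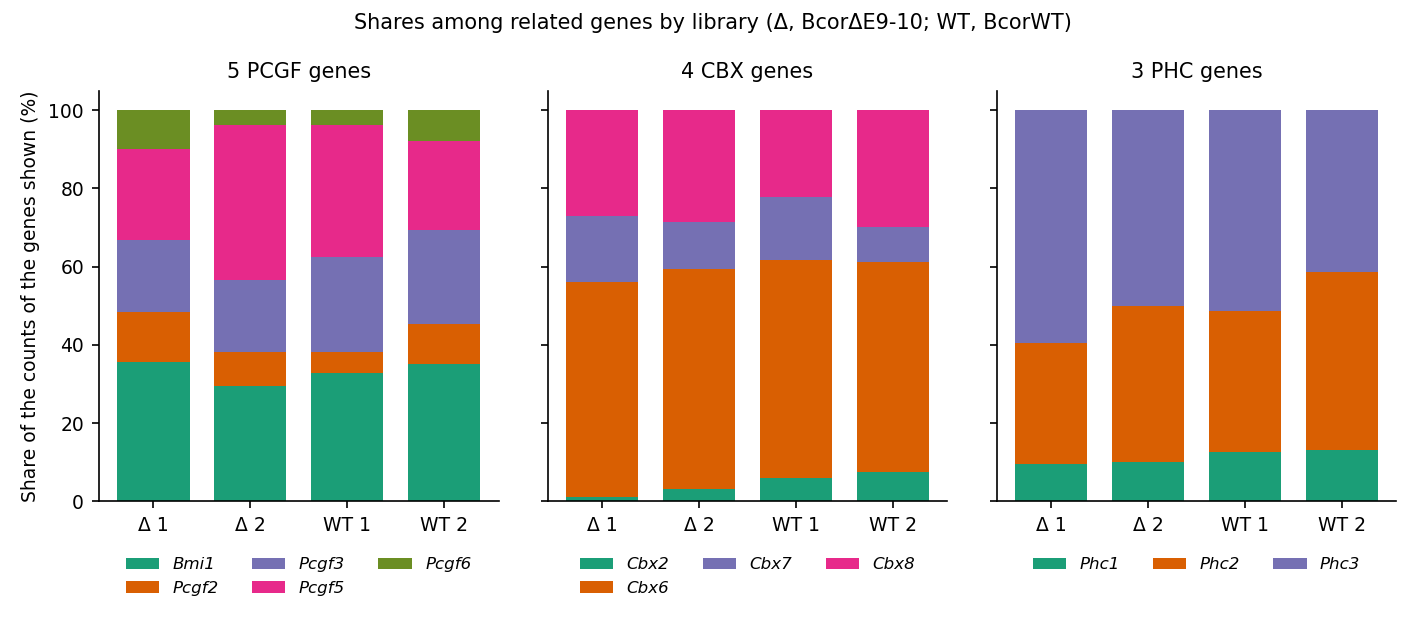
Share of each gene in the summed counts of the PCGF, CBX and PHC genes shown in each panel, in percent, for each library (Δ, BcorΔE9-10; WT, BcorWT). *Cbx2* is the smallest part of the CBX counts, from 0.985 to 7.36%, and *Bmi1* with *Pcgf5* make up most PCGF counts in each library.

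The partners of these subunits were examined from lists of the same pathway. Of 11 further PRC1 core subunits 8 were in the table, and 0 passed an adjusted p under 0.05 in edgeR, limma-voom or DESeq2 (in edgeR 0 had an unadjusted p under 0.05, median log2 fold change 0.13). The genes around this median, *Phc3* and *Rnf2*, were at 0.028 and 0.24, and at -0.13 and 0.14 without BcorWT replicate 2. The median therefore depends on that library. *Rnf2*, the main RING subunit, had 49.0 and 61.3 CPM in BcorΔE9-10 and 49.9 and 43.5 CPM in BcorWT, while *Ring1* had only 4 to 19 counts per library. *Yaf2*, the Rybp paralogue of the variant complexes, and *Scmh1*, a partner of the canonical ones, had the lowest p of this list, with log2 fold changes of 0.57 (SE 0.40) and -0.45 (SE 0.34), which were 0.19 and -0.24 without BcorΔE9-10 replicate 2 and 0.87 and -0.68 without BcorΔE9-10 replicate 1. Of 18 accessory subunits of PRC1.3, PRC1.5 and PRC1.6, 0 passed with any of these tools and 1 had an unadjusted p under 0.05 in edgeR, near the 4.42% of all genes. This was *L3mbtl2*, a PRC1.6 subunit, with 89 and 118 counts in BcorΔE9-10 and 81 and 314 in BcorWT (log2 fold change -1.22, SE 0.46), so BcorWT replicate 2 stood far above the other libraries. *Wdr5*, next in p, was at -0.52 (SE 0.36), again with BcorWT replicate 2 highest at 164 CPM. Without that library *L3mbtl2* was at -0.41 and *Wdr5* at -0.062, and without BcorWT replicate 1 they were at -1.73 and -0.87. The most abundant were *Cbx3* (426 and 387 against 405 and 215 CPM) and *Csnk2a1* (237 and 282 against 239 and 134 CPM).

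Of 8 deubiquitinases of H2A and their Asxl partners, 0 passed an adjusted p under 0.05 with these tools and 0 had an unadjusted p under 0.05 in edgeR, and the genotypes did not overlap for 5 (62.5%, beside 33.9% of all genes). *Mysm1* and *Usp16* had the lowest p, with log2 fold changes of 0.84 (SE 0.44) and 0.52 (SE 0.39). Without BcorWT replicate 2 these were 0.45 and 0.10, and without BcorWT replicate 1 they were 1.34 and 1.07. *Asxl1* and *Asxl2*, the most abundant, were at -0.27 (-0.14 without BcorWT replicate 2 and -0.39 without BcorWT replicate 1) and 0.14. Of 9 classical targets of Bmi1 5 were in the table. *Cdkn2a*, the best known of them, has no value used here. In this list 0 passed an adjusted p under 0.05 in edgeR or limma-voom, 1 passed in DESeq2 (*Hoxa9*), and 3 had an unadjusted p under 0.05 in edgeR, all higher in BcorΔE9-10, where 1.34% of all genes had such a p and were higher. These were *Hoxa9* (log2 fold change 1.87, SE 0.34, edgeR adjusted p = 0.419), *Hoxa10* (1.90, SE 0.71) and *Cdkn1a*, which encodes the cell cycle inhibitor p21 (33.5 and 23.8 CPM against 14.0 and 14.9 CPM, log2 fold change 0.98, SE 0.36). *Hoxa10* had 8.13 and 8.80 CPM against 3.80 and 0.941 CPM, so its BcorWT libraries differed 4.03-fold. Only 1 BcorWT library reached the 2.03 CPM that every gene has in 2 or more libraries. A higher level of *Hoxa10* in BcorΔE9-10 was thus favoured by the filter, and neither its p nor its place among the 3 supports a difference. *Cdkn2c*, another cell cycle inhibitor, was at 0.68 (SE 0.38; 0.35 without BcorWT replicate 2 and 1.08 without BcorWT replicate 1), and the fifth gene, *Ebf1*, had overlapping groups. The paper also names *Hoxa9* as a putative direct target of PRC1.1, the Bcor complex, so the list is not particular to Bmi1. Any relation of these levels to either complex was not tested. This list was chosen with earlier results of these libraries known and is no independent evidence of a direction.

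Leaving out 1 library at a time kept the direction of 6 members, *Bmi1*, *Pcgf2*, *Pcgf5*, *Pcgf6*, *Cbx2* and *Phc1*. For *Cbx2* that direction was favoured by the filter, so neither its kept sign nor its p in these fits supports a difference. The log2 fold change stayed between -0.65 and -0.56 for *Phc1*, between 0.25 and 0.66 for *Bmi1* and between 0.72 and 1.23 for *Pcgf2*. For *Pcgf6* it ran from 0.031 without BcorΔE9-10 replicate 1, where only the sign was kept, to 1.29 without BcorΔE9-10 replicate 2. It ranged from 0.16 without BcorΔE9-10 replicate 2 to 1.25 without BcorWT replicate 1 for *Pcgf5*, and from -2.99 without BcorΔE9-10 replicate 2 to -1.43 without BcorΔE9-10 replicate 1 for *Cbx2*. *Pcgf3* and *Cbx8* changed sign without BcorWT replicate 2, and *Cbx7* changed sign without BcorΔE9-10 replicate 2 and without BcorWT replicate 1. The members with an unadjusted p under 0.05 numbered 2, *Pcgf5* and *Cbx2*, without BcorWT replicate 1, and 0 when any of the other 3 libraries was left out. Without BcorWT replicate 1, 3013 genes of the whole table had an unadjusted p under 0.05 in edgeR in place of 533, and the lone BcorWT library was then assumed to vary like the other group.

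**Figure D5:**
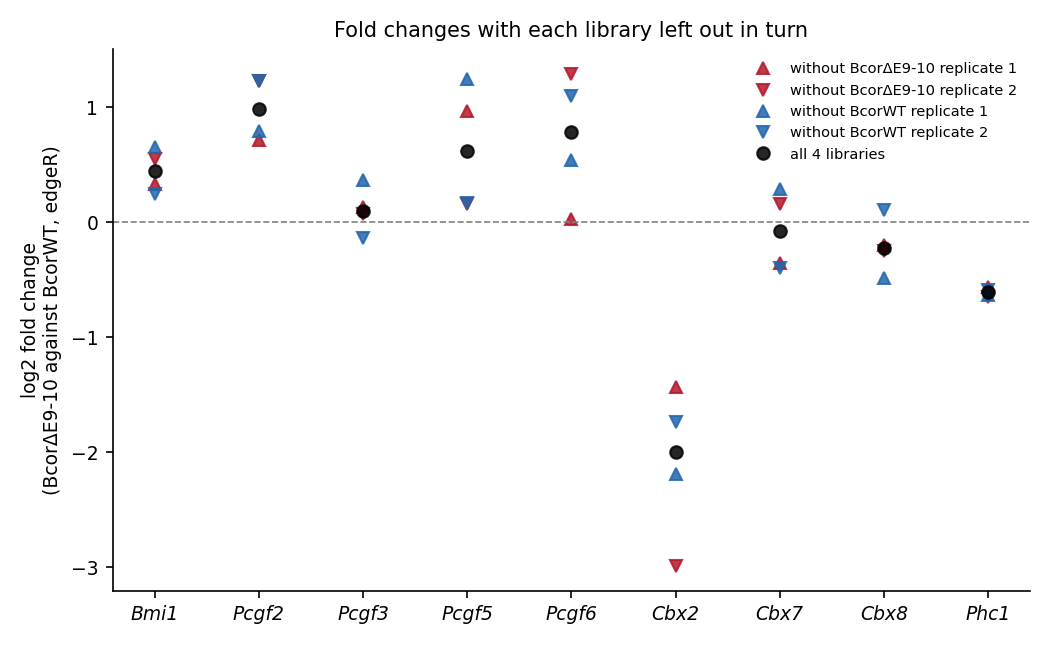
edgeR log2 fold change of each member with all 4 libraries (black circles) and with each library left out (triangles; red, a BcorΔE9-10 library left out; blue, a BcorWT library left out). The points of *Phc1* nearly coincide, between -0.65 and -0.56, whereas those of *Pcgf5*, *Pcgf6* and *Cbx2* are spread widely. Such fits share libraries and do not show counting error, for which single *Phc1* libraries had wide Poisson intervals.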

How the data were processed

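The 4 libraries were Quant-seq libraries of sorted KL cells. The authors removed low-quality reads, trimmed with cutadapt, aligned to mm10 with HISAT2 and used subread to count reads per gene. Values in the deposited table are such counts, not normalized, and otherwise whole. For BcorΔE9-10 replicate 2 and BcorWT replicate 1 the deposited columns were handled as estimated counts and rounded, because the value of 1 gene, *Gm4430*, is not whole there. How that value arose is not given in the sources used here. Every gene reached at least 2.08 CPM by library totals in 2 or more libraries, so the table was filtered, at a level not given in the sources used here.

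The whole table was fitted with edgeR 4.0.16 in R 4.3.3 (filterByExpr, which removed no gene, TMM scaling, quasi-likelihood F test, prior count 0.125, Benjamini-Hochberg adjustment over 12067 genes). SE was the size of the log2 fold change divided by the square root of F. Intervals are 95%, Poisson for CPM of single libraries and Wilson for shares, and cover counting error only, since no molecular identifiers are described. The depth allowed 3 counts to show 0.489 to 0.876 CPM. limma-voom (limma 3.58.1) and DESeq2 1.42.0 were alternatives, with other scalings and filters, the replicate number as a block, and each library left out. An alternative without *Gm42418* and the neutrophil markers was chosen after seeing the data. The fit was tested on simulated data.

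The members and lists were chosen with earlier results of these data known. Genes were named as all members, *Bcor*, *Commd3*, the paralogues and RING subunits, the 2 of each further list with the lowest p and the 2 with most counts, and the 3 genes nearest in pattern to the member with the lowest p. *Apobec3*, *M6pr*, *Cisd3* and *Hoxa10* fall outside this rule and were added with their values known. Some genes of the lists and families are not reported here. The labels give no batch.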

Additional observations from a re-analysis of the deposited data

How the results depend on the processing

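Of the 9 members 0 passed an adjusted p under 0.05 in any of the alternatives run, and their adjusted p ranged from 0.129 (*Pcgf5* without BcorWT replicate 1) to 1.00. The count of members with an unadjusted p under 0.05 was 1 and became 0 with at least 10 counts in every library (which drops *Cbx2* and *Pcgf6*), with the replicate block, with limma-voom and with DESeq2, and 0 to 2 with 1 library left out; the unadjusted p of *Cbx2* thus stood near the threshold. *Cbx7* turned to 0.021 on the log2 scale with library totals alone. With 1 library left out the log2 fold change ranged from -0.14 to 0.37 for *Pcgf3*, -0.39 to 0.29 for *Cbx7*, -0.48 to 0.11 for *Cbx8*, -0.13 to 0.19 for *Phc3*, -0.0062 to 0.30 for *Asxl2*, -0.45 to 0.094 for *Commd3* and -0.25 to 0.98 for *M6pr*, and the share of *Bmi1* in PCGF counts differed by -4.40 to 1.77 percentage points and that of *Cbx8* in CBX counts by -1.98 to 5.72. Calls at an adjusted p under 0.05 ranged from 0 to 1 for the accessory subunits (*L3mbtl2* without BcorWT replicate 1, at -0.41 on the log2 scale and not called without BcorWT replicate 2) and from 0 to 2 for the classical targets, of which 1, *Hoxa9*, was called with DESeq2. Over all genes such calls numbered 2, against 14 with the replicate block, 4 with limma-voom, 5 with at least 10 counts, 43 with DESeq2, and from 6 to 596 with 1 library left out. The cause was not tested. Same-numbered libraries deviated from their group means with a correlation of -0.094, so the numbers were not taken to pair the samples. Low counts limit *Cbx2* and *Pcgf6* most.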
